A study of Mus musculus with 8 samples.

Results

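The 10 tubulin genes described here are 6 β-tubulin genes (Tubb2a, Tubb2b, Tubb3, Tubb4b, Tubb5 and Tubb6) and 4 α-tubulin genes (Tuba1a, Tuba1b, Tuba1c and Tuba4a), out of 53801 genes in the count table. Tubb6 was chosen by its counts in this very comparison, in which it had come out higher in Mll1-deficient Paneth cells, and the other 9 genes were added as its family. The difference of Tubb6 between the genotypes is therefore given as a description. Whether it passed the threshold in one fit or another only describes how it was chosen and is no evidence, and tests are read for the other genes only. All 10 genes were present in the table, and all 10 passed the filter on low counts that left 13439 genes for testing.

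Paneth cells, the secretory cells at the base of small intestinal crypts that make lysozyme and α-defensins, were sorted as viable EpCAM+ Cd24+ cells from 4 β-catGOF; Mll1+/- mice (controls 1 to 4) and 4 β-catGOF; Mll1-/- mice (knockouts 1 to 4), and their RNA was sequenced by Smart-seq2. In β-catGOF mice, Cre removes exon 3 of β-catenin, which stabilizes the protein and activates Wnt signalling. By the study's results every mouse of both groups carried this allele. On that account no group here had unaltered Wnt signalling, and none had an intact pair of Mll1 alleles. Cre was the tamoxifen-dependent CreERT2 of the Lgr5-EGFP-IRES-CreERT2 allele, which is active in Lgr5+ stem cells. Mice of 4 to 6 wk were given tamoxifen on 3 consecutive days (1 mg per injection by the labels), and cells were taken 10 d after induction. The methods paragraph on the sort names Mll1 floxed littermates without β-catGOF, which differs from the β-catGOF genotypes in the study's results. Replicate numbers are names and pair no mice. A shared animal number in the labels of control 4 and knockout 4 was left unused.

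Microtubules are hollow polymers of α- and β-tubulin heterodimers that give epithelial cells their apicobasal order, carry secretory vesicles and build the mitotic spindle. Mammals make each subunit from several genes whose products are nearly identical in the folded core and differ most in the acidic carboxy-terminal tail, where motors and microtubule-associated proteins bind and where chains of glutamate or glycine are added. New tubulin is folded by the chaperonin CCT and by tubulin cofactors, and cells lower tubulin mRNA when free dimers accumulate.

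Values are normalized CPM, counts divided by the library size and brought to a common scale, with library sizes corrected by TMM, a factor that accounts for the share of reads taken by the most abundant genes. A log2 fold change is the difference of knockouts minus controls on the log2 scale, SE is its standard error, and calls needed an adjusted p no higher than 0.05 and a log2 fold change of 0.5 or more in either direction. Adjusted p is that of edgeR's quasi-likelihood test, adjusted by Benjamini-Hochberg over 13439 genes, and p-values measure the spread between these mice. Totals on genes lay between 13037832 and 14380240 counts, and library sizes after TMM between 8487420 and 17362600. A count of 3 in a library, taken as the detection limit, corresponds to 0.173 to 0.353 CPM on the latter. Knockout 3 stood apart, with 19662 genes detected against 22623 to 26074 in the others and 88.1% of its counts on its 50 most abundant genes against 76.4% to 84.8%. Of 12 Paneth markers none was at 0, and together they took 41.1% to 59.2% of the counts in controls and 42.8% to 62.5% in knockouts. Kmt2a, the gene that encodes Mll1, was at 32.3 ± 10.9 CPM in controls (SD, n = 4) and 31.0 ± 5.55 in knockouts, and a count over the whole gene cannot show the loss of part of it. In sorted bulk samples, fewer cells of a type and less RNA per cell cannot be told apart.

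How far the genes can be read apart depends on their sequence. The last 60 bases of each coding region, which encode most of the variable tail, are shown for 7 of the genes, because these bases tell near-identical tubulin transcripts apart. Capitals mark bases outside any run of 15 bases shared with another of the 10 transcripts. The sequences are from the GENCODE M21 transcripts of GRCm38, 5′ to 3′ on the coding strand, and each ends with the stop codon. The positions are chr13:34074468-34074527 (minus strand) for Tubb2a, chr13:34127471-34127530 (minus) for Tubb2b, chr8:123421623-123421682 (plus) for Tubb3, chr2:25222308-25222367 (minus) for Tubb4b and chr17:35834982-35835041 (minus) for Tubb5. Those of the α-tubulin genes shown are chr15:99037950-99038009 (plus) for Tuba1c and chr1:75215622-75215681 (minus) for Tuba4a.
Tubb2a: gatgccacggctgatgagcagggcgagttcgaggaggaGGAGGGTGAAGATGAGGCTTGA
Tubb2b: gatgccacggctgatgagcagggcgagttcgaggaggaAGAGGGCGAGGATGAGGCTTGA
Tubb3: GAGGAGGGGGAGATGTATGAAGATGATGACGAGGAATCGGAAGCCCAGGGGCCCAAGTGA
Tubb4b: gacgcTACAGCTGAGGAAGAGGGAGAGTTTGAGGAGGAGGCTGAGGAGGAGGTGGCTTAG
Tubb5: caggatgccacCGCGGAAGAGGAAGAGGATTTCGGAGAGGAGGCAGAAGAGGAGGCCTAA
Tuba1c: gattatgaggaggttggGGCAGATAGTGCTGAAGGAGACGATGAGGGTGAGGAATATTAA
Tuba4a: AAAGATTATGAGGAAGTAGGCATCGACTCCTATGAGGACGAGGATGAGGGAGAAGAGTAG

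Tubb3 and Tuba4a shared no such run with another of these genes at their ends, whereas the ends of Tubb2a and Tubb2b differed from each other at only 3 of 60 bases. Over the whole coding region, 98.3% of bases were identical between Tuba1a and Tuba1b, 97.1% between Tuba1a and Tuba1c and 97.9% between Tuba1b and Tuba1c. Tubb2a and Tubb2b were identical at 96.5%, while Tubb6 ranged from 80.3% with Tubb5 to 85.9% with Tubb3. The close pairs are also neighbours on the chromosome, with 48.7 kb between Tubb2a and Tubb2b on chromosome 13 and 15.3 kb between Tuba1a and Tuba1b on chromosome 15.

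The deposited counts hold uniquely mapped reads only, so a read wholly within a stretch present in 2 genes is counted for neither. No 50-base window of the Tubb6 or Tubb3 transcript occurred in a transcript of another gene, and 0.115% of the windows of Tubb5 did. Windows found elsewhere made up 49.6% in Tubb2a, most of them in Tubb2b (45.6%), and 39.3% in Tubb2b. They made up 75.5% in Tuba1a, 83.1% in Tuba1b and 61.0% in Tuba1c, so the levels of these 3 genes are uncertain. Reads longer than a window can still map uniquely there, so the windows do not show which bases gave the counts. Tubb4b shared 55.5% of its windows, chiefly with the pseudogene Tubb4b-ps1 (43.6%). Tuba4a shared 48.8%, nearly all with Stk16 (47.7%), a gene on the other strand whose exons cover 37.3% of those of Tuba4a. The strand setting of the counting and its handling of reads over 2 genes are not given in the sources used here. Reads of the shared bases may therefore be missing from Tuba4a or include those of Stk16. Gm49450, a gene model overlapping 26.2% of the exon bases of Tuba1a and 27.4% of those of Tuba1b, had 0 counts in all libraries.

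**Figure D1:**
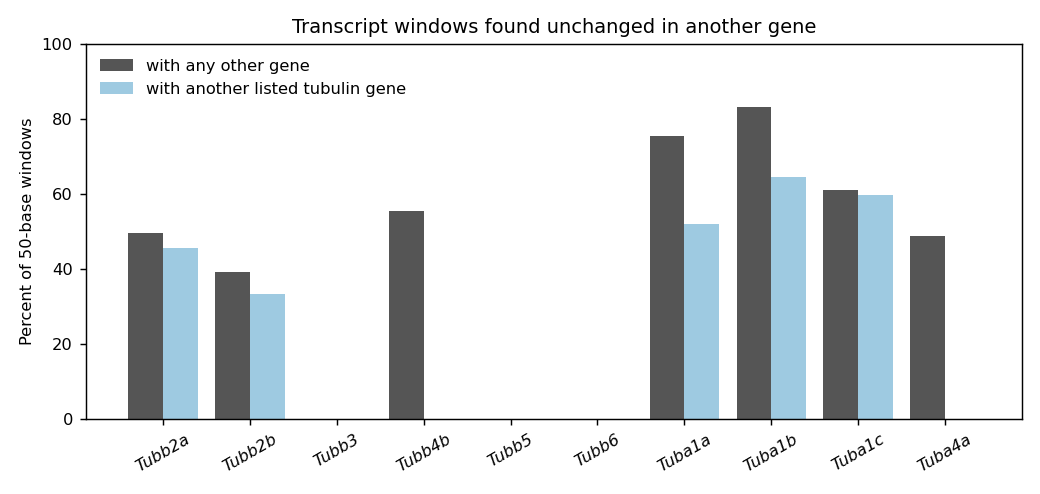
Percent of the 50-base windows of each transcript (y axis) that occur unchanged in a transcript of any other gene (dark bars) or of another of the 10 tubulin genes (light bars). Tubb3 and Tubb6 are at 0 and Tubb5 at 0.115%, while Tuba1b reaches 83.1%.

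Tubb6 encodes the class V β-tubulin, a minor isotype found at low levels in many tissues, and lies at positions 67390717 to 67402748 on the plus strand of chromosome 18 (mm10). Its counts were 1, 4, 3 and 11 in controls 1 to 4 and 99, 89, 27 and 64 in knockouts 1 to 4. As normalized CPM, these were 0.0629, 0.318, 0.27 and 0.871 in controls and 5.9, 5.13, 3.18 and 3.89 in knockouts. Every knockout library was above every control library, and controls 1 and 3 were at or below the limit of 3 counts. The means were 0.381 ± 0.345 CPM in controls and 4.52 ± 1.22 in knockouts (SD, n = 4), a log2 fold change of 3.57 (SE 0.59), or 11.9-fold. Knockout 3 had the lowest value of the knockouts, and without it the log2 fold change was 3.71 (SE 0.55). The libraries carry label numbers in 2 runs, with controls and knockouts 1 and 2 in the first and 3 and 4 in the second. The log2 fold change of Tubb6 was 4.89 (SE 0.64) within the first run and 2.61 (SE 0.82) within the second, in which control 4 had the highest control value.

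Of the 10 tubulin genes, Tubb6 alone was called, against 25 of 13439 genes (0.186%) in either direction. Since Tubb6 was chosen for this call, nothing is read from the count or from the fits that follow, which only describe how the choice depended on the libraries. The call was absent when control 1, 2 or 3 or knockout 1, 2 or 4 was left out, with log2 fold changes between 3.19 and 3.64 in those 6 fits. It was kept without control 4 (log2 fold change 4.39) and without knockout 3. All genes called made up 0.0792%, 0.0857%, 0.0709% and 0.107% of those tested without control 1, 2, 3 and 4, and 0.152%, 0.0795%, 1.08% and 0.123% without knockout 1, 2, 3 and 4. The call of Tubb6 was also absent with the run as a block (0.179% of genes called), and present with library sizes from DESeq2 (0.186%) or without the 50 most abundant genes (0.179%), without the filter on low counts (0.783%), and by DESeq2 (1.03%) and limma-voom (0.752%).

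**Figure D2:**
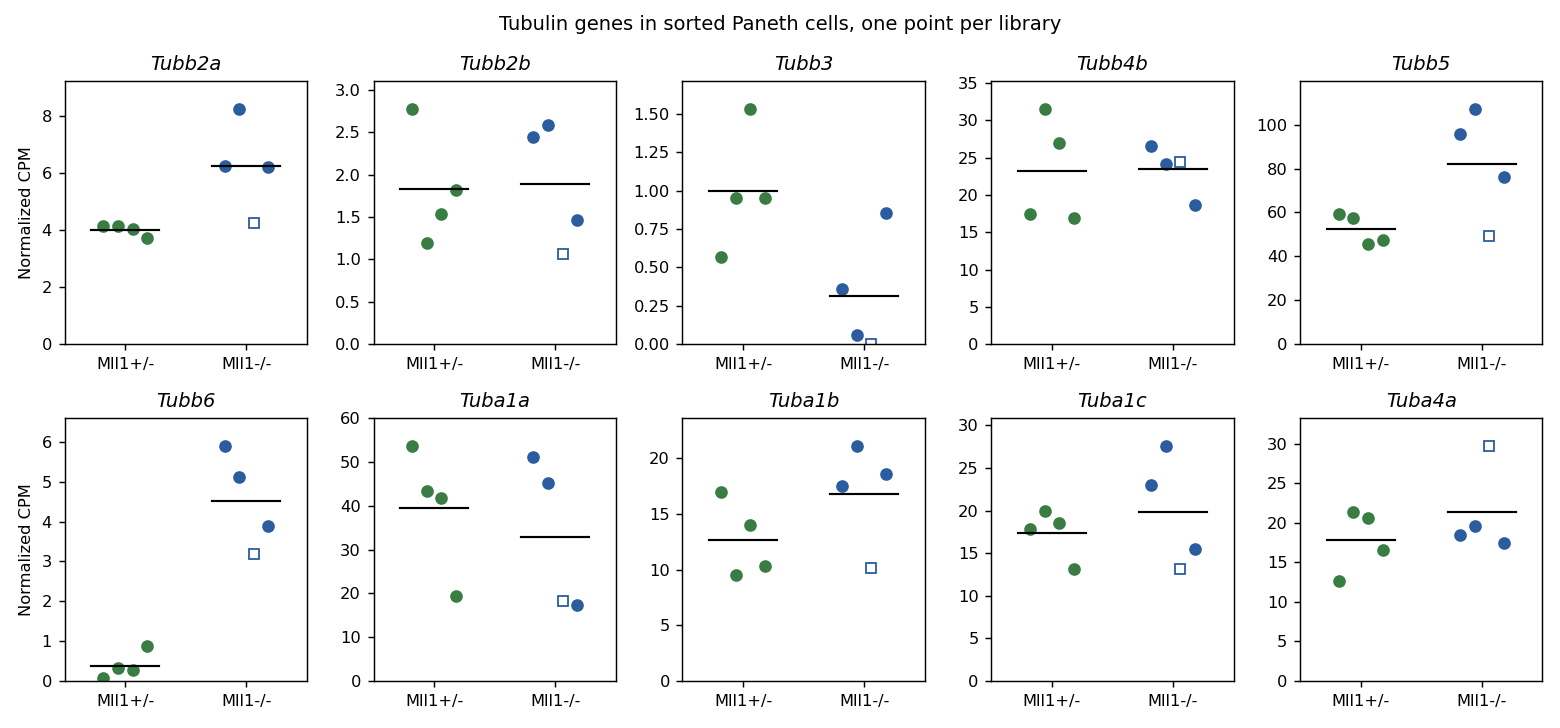
Normalized CPM (y axis, linear from 0, a scale of its own for each gene) of the 10 tubulin genes in controls (Mll1+/-, green) and knockouts (Mll1-/-, blue), 1 point per library in the order 1 to 4, with the group mean as a line and knockout 3 as an open square. The knockouts lie between 3.18 and 5.9 CPM for Tubb6, all above the controls, while the groups overlap for 8 of the genes.

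The genes next to Tubb6 on chromosome 18 were looked at because position was no part of the choice. They are the 3 nearest tested genes on each side, picked after the values were known. Afg3l2, which encodes a mitochondrial protease and starts 2.02 kb beyond Tubb6, was at 14.5 ± 3.62 CPM in controls and 18.7 ± 8.99 in knockouts (log2 fold change 0.36, SE 0.31, adjusted p = 0.916 by edgeR). On the other side, Impa2, an inositol monophosphatase gene 71.6 kb away, was at 1.99 ± 1.2 and 0.834 ± 0.818 CPM (−1.2, SE 0.77, adjusted p = 0.874 by edgeR). The log2 fold changes of Gnal, Chmp1b, Spire1 and Gm17669 were 0.3, 0.1, −0.77 and −0.79. The groups did not overlap for Gm17669, with every knockout below every control (1.08 ± 0.355 and 0.622 ± 0.0794 CPM), as for 4.52% of all genes. None of the 6 neighbours was called.

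Among the other β-tubulin genes, the most abundant was Tubb5, a widely used isotype that is plentiful in dividing cells. It was at 59.4, 57.5, 45.6 and 47.5 CPM in controls and at 95.9, 107, 49.2 and 76.2 CPM in knockouts. Knockout 3 lay within the range of the controls and the other knockouts lay above it. Its log2 fold change of 0.65 (SE 0.23) was not called (adjusted p = 0.551 by edgeR, unadjusted p = 0.0165). Without knockout 3 it was 0.82 (SE 0.16, adjusted p = 0.0328) and was called, against 152 of 14086 genes in that fit (1.08%). It was also called by limma-voom with quality weights, which gives deviating libraries less weight (0.85, SE 0.17, adjusted p = 0.0366), against 0.752% of all genes.

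Markers of dividing cells were set beside Tubb5. Of 12 proliferation markers (Mki67, Top2a, Cdk1 and others), all 12 had a log2 fold change above 0, with a median of 0.54 against 0.0085 over all genes tested, 3 had an unadjusted p under 0.05 (6.88% of all genes tested did), and none was called by edgeR, DESeq2 or limma-voom. The groups did not overlap for 2 of the 12, against 4.52% of all genes. Without knockout 3 their median was 0.72, the groups did not overlap for 6 of them, Top2a and Cenpf among these, against 11.0% of all genes, and Bub1, a spindle checkpoint kinase gene, was called (1.65, SE 0.27, adjusted p = 0.0126 by edgeR). In the same fit the median of the 12 Paneth markers went from −0.1 to −0.58, with none called. The summed level of the proliferation markers was 203, 98, 157 and 113 CPM in controls and 226, 317, 117 and 235 CPM in knockouts. The lowest and the highest knockout in this sum, knockouts 3 and 2, were also the lowest and the highest for Tubb5. Among controls, control 1 was the highest for both, but control 2 had the lowest sum and control 3 the lowest Tubb5. The part of dividing cells in the values of Tubb5 was not tested.

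Tubb2a, a β-tubulin gene of many tissues that is most abundant in brain, was at 4.15, 4.14, 4.05 and 3.72 CPM in controls and 6.26, 8.24, 4.24 and 6.21 CPM in knockouts. The groups did not overlap, though control 1 and knockout 3 were separated by little. A log2 fold change of 0.64 (SE 0.28) was not called (adjusted p = 0.678 by edgeR, unadjusted p = 0.0394) and was 0.78 (SE 0.24) without knockout 3 (adjusted p = 0.208 by edgeR). Its near-copy Tubb2b, known from developing neurons, was at 2.77, 1.19, 1.53 and 1.82 CPM in controls and 2.44, 2.59, 1.06 and 1.46 CPM in knockouts, and the groups overlapped throughout (log2 fold change 0.06, SE 0.45, adjusted p = 0.996 by edgeR). Because 45.6% of the windows of Tubb2a are also in Tubb2b, reads wholly within the shared stretches are missing from these counts.

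Leaving out Tubb6, whose separation was fixed by its choice, non-overlapping groups were found for 1 of the other 9 genes, Tubb2a, against 4.52% of all genes tested. Without knockout 3 there were 3 of 9, with Tubb5 and Tuba1b added, against 11.0% of all genes.

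Tubb4b, a β-tubulin gene expressed in most tissues and abundant in ciliated cells, had nearly equal means in both genotypes. It was at 17.5, 31.5, 27.0 and 16.9 CPM in controls and 26.6, 24.1, 24.4 and 18.7 CPM in knockouts. The control range enclosed that of the knockouts, and the log2 fold change was 0.01 (SE 0.23, adjusted p = 0.997 by edgeR).

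Tubb3, the β-tubulin used as a marker of neurons, was the only β-tubulin gene with a lower mean in knockouts. Its counts were 9, 12, 17 and 12 in controls and 6, 1, 0 and 14 in knockouts, or 0.566, 0.955, 1.53 and 0.95 CPM and 0.357, 0.0576, 0 and 0.852 CPM. Knockouts 1 to 3 lay below all controls and knockout 4 lay among them. At −1.53 (SE 0.80), its log2 fold change was not called (adjusted p = 0.796 by edgeR). With 1 library left out it ranged from −2.61 (without knockout 4) to −1.18 (without knockout 2). With at most 17 counts in a library, only large differences are detectable.

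Enteroendocrine markers, which can accompany Tubb3, were uneven over the libraries. Of 13 tested, 12 had a log2 fold change below 0, with a median of −1.43, 7 had an unadjusted p under 0.05, against 6.88% of all genes tested, and none was called by edgeR. Neurod1, a transcription factor gene of the lineage, passed at a 10% false discovery rate (−2.27, SE 0.40, adjusted p = 0.0629 by edgeR) and was called by DESeq2 (adjusted p = 9.65e-06) and by limma-voom, and Chga, the chromogranin A gene, was called by DESeq2 (adjusted p = 0.0361). DESeq2 called 1.03% of all genes and limma-voom 0.752%. Their sum was 910 to 1940 CPM in controls and 907, 71.1, 1870 and 339 CPM in knockouts 1 to 4. In knockout 3, Gip, the hormone gene of K cells, alone made up 1690 CPM of it. With Gip the groups overlapped. Without it the sum was 706, 819, 971 and 773 CPM in controls and 703, 70.9, 186 and 222 CPM in knockouts. Knockout 1 was then just below the lowest control, with Sst alone at 496 CPM. Gip was left out because of these same values, so nothing is read from the separation. Neural and glial markers summed to 8.75 to 11.8 CPM in controls and 6.2, 4.38, 12.5 and 6.57 in knockouts 1 to 4, so that all knockouts but knockout 3 lay below every control. Of 9, 4 were tested and none was called by edgeR, DESeq2 or limma-voom with all libraries, with no unadjusted p under 0.05. Elavl4, a neuronal RNA-binding protein gene, was at 1.57 ± 0.242 and 0.671 ± 0.476 CPM (−1.16, SE 0.57, adjusted p = 0.771 by edgeR). Its groups did not overlap, as for 4.52% of all genes. Snap25, a gene of vesicle release, had overlapping groups with all libraries (−0.91, SE 0.67, adjusted p = 0.9 by edgeR) and was called without knockout 3 (−2.11, SE 0.45, adjusted p = 0.0466 by edgeR), as were 1.08% of all genes. The part of these cell types in the values of Tubb3 was not tested.

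Markers of cells outside the epithelium were low or overlapped between the genotypes. Stromal markers, from cells known to express Tubb6, summed to 1.35 to 2.15 CPM in controls and 1.15 to 1.89 in knockouts, with no count above 10 and none of the 10 passing the filter. Endothelial markers, of which 1 of 6 was tested, summed to 3.64 to 7.23 and 4.38 to 6.72 CPM. Immune markers, of which 2 of 10 were tested, summed to 143 to 472 and 172 to 627 CPM, nearly all of it from Lyz2, a lysozyme gene, and without Lyz2 to 3.8 to 13.6 and 1.53 to 11.6 CPM.

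The α-tubulin genes are the partners of the β-tubulins in the dimer, and none of the 4 was called. Tuba1a, known as a major isotype of young neurons, was at 53.7, 43.5, 41.8 and 19.4 CPM in controls and 51.2, 45.2, 18.3 and 17.3 CPM in knockouts. High and low libraries occurred in both genotypes, and all 3 libraries under 20 CPM were in the second run of label numbers. Knockouts minus controls gave −0.26 on the log2 scale (SE 0.39, adjusted p = 0.97 by edgeR).

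Markers of tuft cells, chemosensory cells of the epithelium, are given beside Tuba1a. All 8 tested of 9 had a log2 fold change below 0, with a median of −0.85, 1 had an unadjusted p under 0.05, and none was called by edgeR, DESeq2 or limma-voom. Their sum was 512, 614, 267 and 192 CPM in controls and 397, 239, 115 and 110 CPM in knockouts. The 3 lowest libraries of this sum, control 4 and knockouts 3 and 4, were also the 3 lowest for Tuba1a, and the part of tuft cells in its values was not tested. Of 7 stem cell markers, 5 were below 0 and 2 above, with a median of −0.70, 4 had an unadjusted p under 0.05 (6.88% of all genes did) and none was called by edgeR or DESeq2, while limma-voom called Axin2, which was above 0. Without knockout 3 the groups did not overlap for 2 higher and 1 lower of the 7, against 11.0% of all genes. Their sum was 710 to 1530 CPM in controls and 274 to 963 CPM in knockouts. Of 8 goblet cell markers, 4 were above 0 and 4 below, 2 that were lower in knockouts had an unadjusted p under 0.05, none was called by these tools, and the sums were 9330 to 17800 and 7940 to 19100 CPM.

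Tuba1b, an α-tubulin gene of nearly every cell, was at 17.0, 9.47, 14.0 and 10.3 CPM in controls and 17.5, 21.1, 10.1 and 18.6 CPM in knockouts. Without knockout 3 the remaining knockouts were above all controls, by 17.5 to 17.0 CPM at the closest. Its log2 fold change was 0.41 (SE 0.27, adjusted p = 0.878 by edgeR) with all libraries and 0.58 (SE 0.22, adjusted p = 0.337 by edgeR) without knockout 3. Tuba1c, its neighbour and close copy, was at 17.8, 20.0, 18.6 and 13.1 CPM in controls and 23.0, 27.6, 13.2 and 15.5 CPM in knockouts, with overlapping groups (0.19, SE 0.25, adjusted p = 0.965 by edgeR).

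Tuba4a, an α-tubulin gene whose product carries no carboxy-terminal tyrosine when made, was highest in knockout 3. It was at 12.6, 21.3, 20.6 and 16.5 CPM in controls and 18.5, 19.6, 29.7 and 17.4 CPM in knockouts. Knockout 3 had the highest value of all 8 libraries, whereas it was the lowest knockout for 7 of the 10 tubulin genes. Its difference was 0.26 on the log2 scale (SE 0.24, adjusted p = 0.925 by edgeR) and 0.06 (SE 0.20) without knockout 3. Stk16, the kinase gene that shares its exons, was at 13.1 ± 2.56 CPM in controls and 18.6 ± 6.55 in knockouts (log2 fold change 0.49).

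The 9 genes other than Tubb6 thus gave no call by edgeR, with 2 at an unadjusted p under 0.05 (Tubb5 and Tubb2a) and adjusted p between 0.551 and 0.997. Their log2 fold changes were above 0 for 7 and below 0 for 2, against 50.9% and 49.1% of all genes tested, with a median of 0.19 against 0.0085. DESeq2's Wald test called none of the 9 either (1.03% of all genes), while limma-voom called Tubb5.

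**Figure D3:**
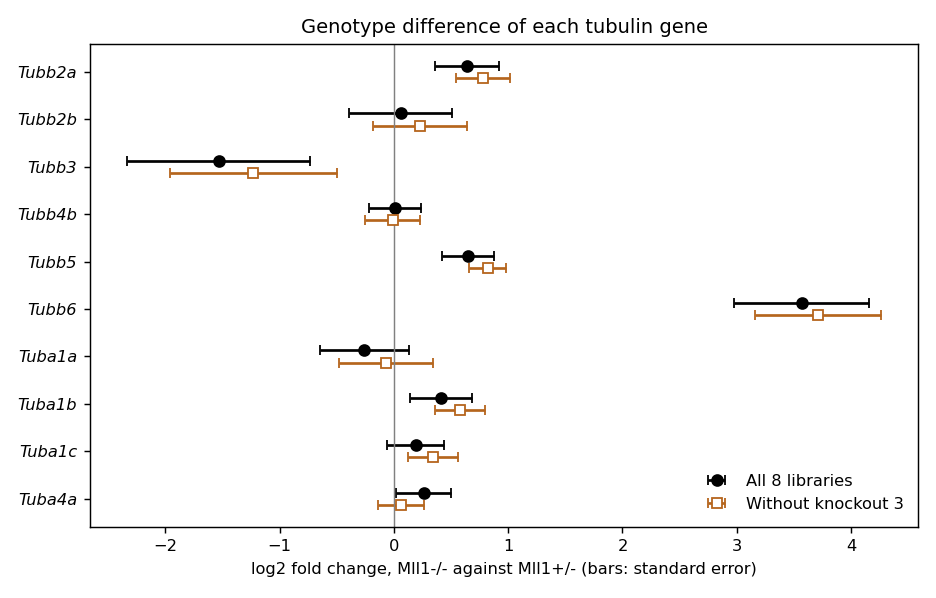
Log2 fold change of knockouts against controls (x axis) for each tubulin gene, with all 8 libraries (filled circles) and without knockout 3 (open squares), and bars of 1 standard error. Tubb6 stands at 3.57 and 3.71, and the other genes lie between −1.53 and 0.82.

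Levels of different genes can be set against each other only per length, as normalized CPM per kilobase of exon. In controls the order was Tuba1a (22.0 ± 8.01), Tubb5 (15.8 ± 2.09), Tubb4b (11.1 ± 3.44), Tuba1c (7.6 ± 1.3), Tuba1b (6.77 ± 1.86), Tuba4a (4.79 ± 1.1), Tubb2a (2.49 ± 0.125), Tubb2b (0.797 ± 0.295), Tubb3 (0.535 ± 0.213) and Tubb6 (0.217 ± 0.196), with SD and n = 4. The ranges of neighbours in this order overlapped except between Tuba4a and Tubb2a and between Tubb2a and Tubb2b. In knockouts the order was Tubb5 (24.7 ± 7.62), Tuba1a (18.3 ± 9.83), Tubb4b (11.2 ± 1.61), Tuba1b (8.97 ± 2.52), Tuba1c (8.66 ± 2.92), Tuba4a (5.75 ± 1.53), Tubb2a (3.87 ± 1.01), Tubb6 (2.58 ± 0.693), Tubb2b (0.823 ± 0.325) and Tubb3 (0.17 ± 0.209). Tubb6 was the lowest of the 10 in controls and the 8th in knockouts, where its range overlapped that of Tubb2a but lay above that of Tubb2b. Stretches shared with copies elsewhere yield fewer unique reads, so the levels of the Tuba1 genes, Tubb2a, Tubb2b and Tubb4b may be too low. That of Tuba4a may be too low if reads over 2 genes were dropped, or may otherwise hold reads of Stk16.

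Tubb6 made up 0.118%, 0.501%, 0.499% and 1.87% of the summed per-kilobase level of the 6 β-tubulin genes in controls 1 to 4. In knockouts 1 to 4 the share was 6.71%, 5.51%, 5.77% and 5.68%. The knockouts were close to one another, knockout 3 included, and all were above the controls (means 0.747% ± 0.77 and 5.92% ± 0.537, SD, n = 4). Tubb6 thus remained a minor β-tubulin mRNA in every library. Tubb5, with shares of 44.5% to 60.8%, and Tubb4b, with 21.8% to 42.0%, held most of the sum in both genotypes.

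The β-tubulin sum without Tubb6 was 26.0 to 36.0 CPM per kilobase in controls and 46.7, 50.02, 29.6 and 36.8 in knockouts. Knockout 3 lay within the control range and knockout 4 just above it. The α-tubulin sum was 50.04, 43.65, 44.3 and 26.4 CPM per kilobase in controls and 52.7, 53.7, 29.3 and 31.0 in knockouts, with overlapping groups. The share of Tuba1a in it was 40.7% to 59.5% in controls and 31.1% to 53.8% in knockouts.

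**Figure D4:**
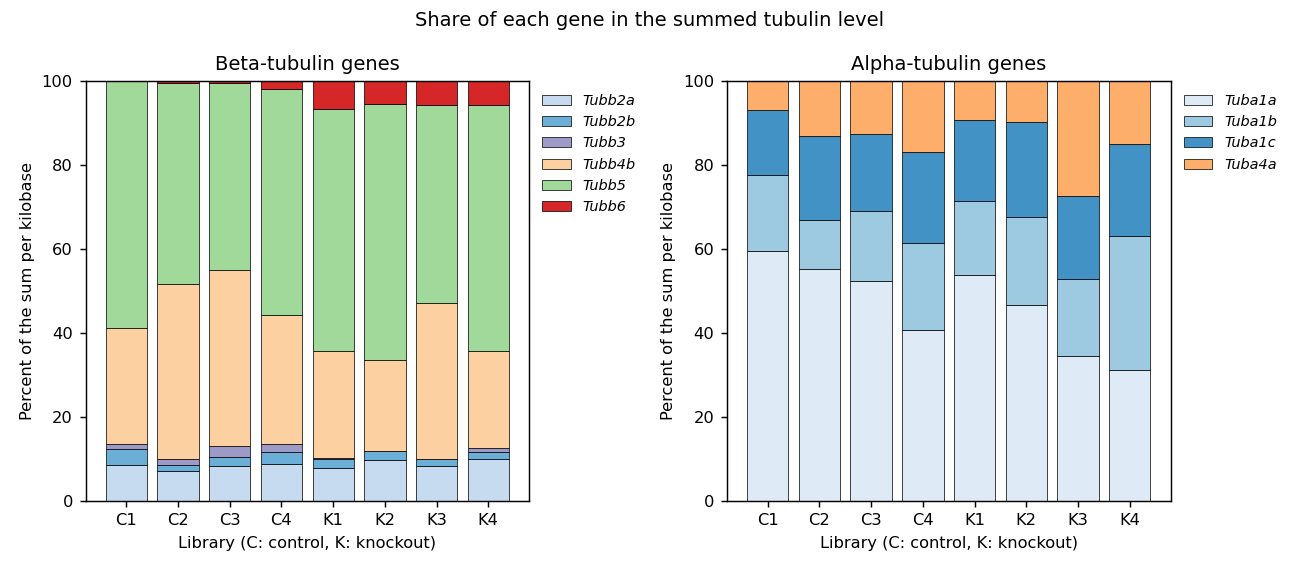
Share of each gene in the summed per-kilobase level (y axis, percent) of the 6 β-tubulin genes (left) and the 4 α-tubulin genes (right) in controls (C1 to C4) and knockouts (K1 to K4). The share of Tubb6 (red) is 0.118% to 1.87% in controls and 5.51% to 6.71% in knockouts.

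Once each genotype's mean was subtracted, several tubulin genes varied together over the 8 libraries, which share depth, sort and the deviation of knockout 3. Pearson's r of log2(CPM + 0.5) was 0.91 for Tubb5 and Tubb2a, 0.90 for Tuba1a and Tuba1c and 0.85 for Tubb5 and Tuba1c. It was negative for Tuba4a with Tubb2b (−0.80) and with Tuba1b (−0.79). For Tubb6 with the other 9 genes it ranged from −0.09 to 0.29. Tubb6 had 1, 4, 3 and 11 counts in controls 1 to 4, so counting error enters its deviations there. These r values therefore cannot show whether it varied with the other genes.

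Across all 8 libraries with the genotype difference left in, the genes with the pattern most like that of Tubb6 were Notum (r = 0.98), Tcp1 (0.97), Slc16a10 (0.97), Myh10 (0.97) and Gulo (0.96), out of 13438 genes. Notum encodes a secreted Wnt deacylase and rose from a mean of 0.581 to 17.0 CPM, and Gulo, an enzyme of ascorbate synthesis, rose from 0.115 to 8.27 CPM, and both were called. Slc16a10, an aromatic amino acid transporter gene, was at 3.32 and 6.47 CPM, and Myh10, a non-muscle myosin gene, at 0.953 and 2.69 CPM, and neither was called. This measure of likeness includes the difference between the genotypes. With the genotype means subtracted, the closest were Ndufs5 (0.98), Mbd2 (0.96), Gm44402 (0.95), Rnf139 (0.95) and Lrrc8c (0.95), which had log2 fold changes of 0.08, 0.12, 0.0031, −1.04 and 0.15.

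The rest of the microtubule machinery was followed in 6 lists with 138 tested genes. None of them was called by edgeR, 15 had an unadjusted p under 0.05 (6.88% of all genes tested did), and 1, Tppp, passed at a 10% false discovery rate (0.283% of all genes did). DESeq2's Wald test called 2 of the 138, Tppp and Ttll1, and 1.03% of all genes.

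Of the other tubulin genes, 4 of 10 in the table were tested and none was called, with a median log2 fold change of 0.54 and all 4 above 0. Tubb4a, a β-tubulin of brain and myelinating glia, was at 0.503, 0.478, 0.81 and 1.03 CPM in controls and 1.61, 1.67, 2.12 and 1.95 CPM in knockouts. Every knockout lay above every control, where groups did not overlap for 4.52% of all genes. Its log2 fold change of 1.37 (SE 0.45) was not called (adjusted p = 0.479 by edgeR). Tubg1, the γ-tubulin of nucleating rings, was at 2.41 ± 0.62 and 3.1 ± 1.26 CPM (0.37, SE 0.39), and Tube1, the ε-tubulin of centrioles, at 0.851 ± 0.685 and 1.26 ± 0.554 CPM (0.58, SE 0.62). Tubd1, the centriolar δ-tubulin, was at 1.43 to 2.63 CPM in controls and 1.67, 0.634, 7.89 and 1.1 CPM in knockouts, and its log2 fold change turned from 0.49 to −0.77 without knockout 3. Tubal3 was below the filter, with at most 3 counts in each control and 18, 0, 0 and 22 counts in knockouts 1 to 4. Tubb1, Tuba3a, Tuba3b, Tuba8 and Tubg2 had no more than 13 counts in any library.

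The tubulin folding genes, which encode the chaperonin CCT, prefoldin and the tubulin cofactors, mostly had higher means in knockouts, and none was called. Of 21 tested, 20 had a log2 fold change above 0, with a median of 0.25 against 0.0085 over all genes tested, and 4 had an unadjusted p under 0.05, as did 6.88% of all genes. The proliferation markers lay above 0 for 12 of 12, with a median of 0.54, and their part in the folding genes was not tested. Tcp1, a CCT subunit gene, was at 34.3, 34.9, 32.2 and 37.2 CPM in controls and 49.0, 52.4, 45.6 and 45.2 CPM in knockouts. The groups did not overlap, and knockout 3 was among the others (log2 fold change 0.47, SE 0.15, adjusted p = 0.442 by edgeR). Cct7 was at 44.5 ± 3.94 and 57.1 ± 4.33 CPM, again without overlap (0.36, SE 0.15), and Cct3 at 33.0 ± 2.22 and 43.6 ± 7.77 CPM with overlap (0.40, SE 0.17). Tcp1, Cct7 and Cct3 were named for the smallest p of the list. Groups did not overlap for 3 of the 21, all higher in knockouts, against 4.52% of all genes.

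The tubulin modification and autoregulation genes had no common direction, with 9 of 20 above 0 and a median of −0.02. Ttll1, a polyglutamylase gene, was at 1.38, 0.716, 0.63 and 0.475 CPM in controls and 2.09, 0.864, 11.2 and 4.68 CPM in knockouts. Knockouts 3 and 4 were high and knockout 2 lay among the controls, and the log2 fold change of 2.49 (SE 0.72, adjusted p = 0.39 by edgeR) was 1.63 without knockout 3. Ttll10, a polyglycylase gene, and Ttll7, a polyglutamylase gene, had log2 fold changes of −0.88 (SE 0.53) and −0.56 (SE 0.35).

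The nucleation genes had a median of 0.08, with 11 of 20 above 0. Haus3, Haus4 and Haus8, subunits of the augmin complex that branches spindle microtubules, had log2 fold changes of 1.07 (SE 0.45), 1.05 (SE 0.51) and 1.26 (SE 0.63), each with overlapping groups. The other 5 subunits lay lower, at 0.18 for Haus1, 0.14 for Haus2, 0.12 for Haus6, −0.1 for Haus7 and −0.43 for Haus5. Knockout 3 had the highest value of Haus3 (22.0 CPM) and of Haus8 (10.5 CPM), and without it their log2 fold changes were 0.46 and 0.34, while that of Haus4 was 1.22.

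Among 33 genes of microtubule-associated proteins and dynamics, 20 were above 0, with a median of 0.08. Groups did not overlap for 2 of the 33, both lower in knockouts, against 4.52% of all genes. Tppp, which encodes a protein that bundles microtubules, was lower in every knockout. It was at 2.45, 1.83, 1.71 and 4.04 CPM in controls and 0.417, 0.461, 0.589 and 0.365 CPM in knockouts, a log2 fold change of −2.46 (SE 0.48). It was not called with all libraries (adjusted p = 0.0941 by edgeR), was called without knockout 3 (−2.58, adjusted p = 0.0266 by edgeR) and was called by DESeq2 (adjusted p = 0.00124). Macf1, a linker of actin and microtubules, was at 20.2 ± 2.57 and 28.7 ± 5.58 CPM (0.50, SE 0.19), and Mapre1, the end-binding protein EB1, at 27.8 ± 4.23 and 39.9 ± 8.49 CPM (0.52, SE 0.20), both with overlap and neither called.

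The motor genes had a median of −0.09, with 13 of 40 above 0. Kif22 and Kif23, kinesins of dividing cells, were at 2.18 ± 0.593 and 4.5 ± 1.21 CPM (1.04, SE 0.35) and at 6.81 ± 2.1 and 11.6 ± 2.39 CPM (0.77, SE 0.28). Kif12, a kinesin of epithelia such as kidney and pancreas, was at 1.75 ± 0.66 and 3.92 ± 1.19 CPM (1.17, SE 0.39). For Kif22 and Kif12 the groups did not overlap, and none of the 3 was called (adjusted p = 0.502, 0.558 and 0.502 by edgeR for Kif22, Kif23 and Kif12). These 3 were named for the smallest p of the 40 motor genes. Groups did not overlap for 2 of the 40 higher and 2 lower in knockouts, against 4.52% of all genes. An unadjusted p under 0.05 by edgeR was found for 3 higher and 1 lower, against 6.88% of all genes. The proliferation markers given beside Tubb5 bear on the kinesins of dividing cells too, and their part was not tested.

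**Figure D5:**
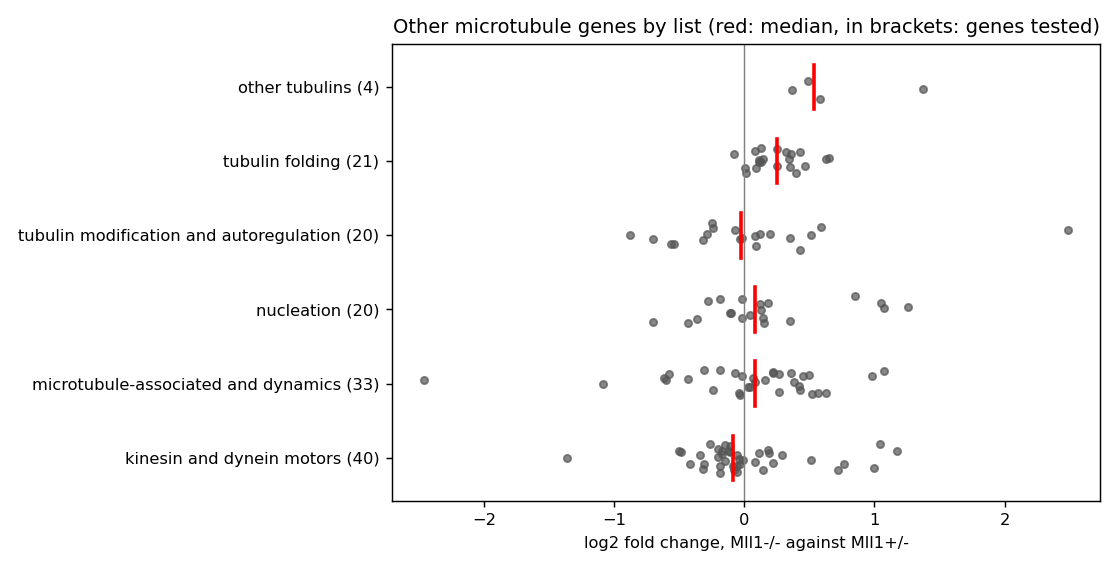
Log2 fold change of knockouts against controls (x axis) of the tested genes in 6 lists of microtubule genes, 1 point per gene, with the list's median as a red line. The median is 0.54 for the 4 other tubulin genes, which all lie above 0, 0.25 for the folding genes, where 20 of 21 points do, and between −0.09 and 0.08 for the modification, nucleation, microtubule-associated and motor genes.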

How the data were processed

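RNA of sorted Paneth cells was compared between 4 controls and 4 knockouts, grouped by the genotype in the labels. The authors aligned reads to mm10 and deposited raw counts of uniquely mapped reads per gene, made with featureCounts 1.6.3 (submitters' processing notes; bcl2fastq 2.19.1), and gene lengths, an other column of the deposited table used for levels per kilobase. Symbols matched for 53620 of 53801 identifiers, and 92 spike-in rows were left out. From the counts, edgeR 4.0.16 (R 4.3.3) gave TMM factors and robust quasi-likelihood fits for the 13439 genes passing filterByExpr (minimum count 10, minimum total 15); the common biological coefficient of variation was 0.376. The SE is the log2 fold change divided by the square root of F. The detection limit of 3 counts covers counting error only, since PCR copies were counted, while SD and SE cover the spread between libraries. No 2 libraries were alike within sampling noise (smallest chi-square per degree of freedom 10.78).

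The members and lists were chosen with earlier results of these data known. Named are all 10 members, the other tubulin genes, in each other microtubule list every called gene and the 3 with the smallest p, the 5 genes most like Tubb6 by either measure, and Kmt2a. The neighbours of Tubb6, Stk16 and the marker lists were added to these. Alternatives were DESeq2 1.42.0 (size factors and Wald test), limma-voom (limma 3.58.1), no filter, library sizes without the 50 most abundant genes, 10% false discovery rate, the run of library numbers as a block, levels not divided by length, and each library left out. Fits within a run were added after seeing the data. Shared windows were counted in GENCODE M21 transcripts. The coding ends of some genes are not reported here. The functions were tested on simulated counts.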

Additional observations from a re-analysis of the deposited data

Results flagged for a closer look

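Among 30 groups of 4 libraries examined, 1 held a library far from the others, where 1.5 would be set apart by chance. Tubd1 was at 7.89 CPM in knockout 3 and at 0.634 to 1.67 CPM in the other knockouts, a gap that takes up 0.857 of the group's range, above Dixon's critical value for a group of this size.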

How the results depend on the processing

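Genes called numbered 25, and 290 without the filter, 138 by DESeq2, 101 by limma-voom, 38 at 10% false discovery rate and 10 to 152 with 1 library left out (152 without knockout 3). Of the 10 tubulin genes 1 was called, 2 by limma-voom (Tubb6 and Tubb5), 0 with the run of library numbers as a block and 0 to 2 with 1 library left out. Of the 138 other microtubule genes 0 were called, 2 without the filter and by DESeq2 (Tppp and Ttll1), 1 at 10% false discovery rate and 0 to 1 with 1 library left out. The log2 fold change of Tubb6 stayed above 0 in all settings run. Its call, which is no evidence, was absent at 3.60 with the run as a block and at 2.61 within the second run, and the log2 fold change was 3.19 to 4.39 with 1 library left out. Its mean share in knockouts was 3.82% when levels were not divided by length. Of 144 values of the other 9 genes, 127 kept direction and side of the threshold, 15 changed sign and 2 were newly called. The changes of sign were those of Tubb2b (−0.01 with the run as a block, −0.38 within the second run, −0.13 to 0.34 with 1 library left out), Tubb4b (−0.01 within the second run, −0.12 to 0.19), Tuba1a (0.11 by limma-voom) and Tuba1c (−0.13 within the second run, −0.01 to 0.34), and the cause was not tested. No paired analysis was possible because the labels of the groups share only 1 number, the animal number of control 4 and knockout 4, and 1 pair allows no block. Controls of Tubb6 held 1 to 11 counts, so the depth leaves its control level, and with it the fold, imprecise. Fits within a run have 2 libraries a group.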
